A study of Mus musculus with 6 samples.

Results

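The 10 keratin genes described here are those of the mammary basal layer (Krt5, Krt14, Krt15 and Krt17), those of the luminal layer (Krt7, Krt8, Krt18 and Krt19), and Krt6a and Krt23. They were chosen by name as a gene family, with earlier results of these data known. They were found on the array through the transcript accession of each probe. This gave 11 probes, 2 for Krt5 and 1 for each of the others, among 20145 genes with a matched probe. Expression was measured on single-colour arrays in primary mammary epithelial cells of female mice, aged 8 weeks and of the strain 129sv/C57Bl6. There were 3 samples with the genotype Plk2 -/- (null), lacking the polo-like serine/threonine kinase Plk2, and 3 wild-type samples, each on its own array. The labels state that whole glands were dissociated and name no sorting step, so each sample may hold several cell types. They do not say which part of Plk2 is deleted or that the samples came from separate animals, so the p-values measure the spread between these samples.

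Keratins are the intermediate filament proteins of epithelia. A filament is built from pairs of a type I and a type II keratin, and the pair used marks the cell layer: Krt5 (type II) pairs with Krt14 (type I) in basal and myoepithelial cells of the mammary duct, and Krt8 (type II) pairs with Krt18 (type I) in luminal cells. The other type II members here are Krt6a and Krt7, and the other type I members are Krt15, Krt17, Krt19 and Krt23. In a bulk sample, fewer cells of a type and less RNA per cell cannot be told apart.

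The promoter letters of the pairs that define the layers, and of Krt23, are shown. The pairs mark the basal and the luminal cells, and Krt23 had the largest difference of the 10 members. Of the 10 members, 6 have a promoter sequence in the RefSeq table used (build GRCm38.p6). Each line gives the 250 bases before the annotated start, 5′ to 3′, with capitals marking the hexamer ATAAAA, a form of the core promoter element that sets the start of many genes, and the half-site consensus of the p53 family, to which the basal regulator p63 belongs; both were searched on both strands.
Krt5, chr15:101712906-101713155, minus strand: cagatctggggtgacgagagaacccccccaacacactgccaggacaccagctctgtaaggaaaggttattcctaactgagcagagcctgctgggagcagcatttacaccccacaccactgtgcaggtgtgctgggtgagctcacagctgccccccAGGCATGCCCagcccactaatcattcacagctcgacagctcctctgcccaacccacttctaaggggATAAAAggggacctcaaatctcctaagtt
Krt14, chr11:100206031-100206280, minus strand: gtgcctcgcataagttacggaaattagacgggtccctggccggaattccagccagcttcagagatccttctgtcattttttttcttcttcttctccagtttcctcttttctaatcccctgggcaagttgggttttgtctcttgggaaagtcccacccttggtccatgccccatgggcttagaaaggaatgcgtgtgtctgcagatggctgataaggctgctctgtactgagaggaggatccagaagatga
Krt23, chr11:99493121-99493370, minus strand: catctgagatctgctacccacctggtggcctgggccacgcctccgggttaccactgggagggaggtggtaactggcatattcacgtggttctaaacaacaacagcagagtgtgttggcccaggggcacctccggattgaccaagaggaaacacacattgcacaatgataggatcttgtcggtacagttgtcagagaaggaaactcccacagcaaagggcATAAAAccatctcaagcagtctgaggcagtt
Krt8, chr15:102004343-102004592, minus strand: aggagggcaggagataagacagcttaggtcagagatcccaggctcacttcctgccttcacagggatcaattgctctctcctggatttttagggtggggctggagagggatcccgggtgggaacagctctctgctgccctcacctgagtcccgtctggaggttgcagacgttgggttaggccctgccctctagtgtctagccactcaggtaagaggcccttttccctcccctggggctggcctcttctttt
Krt18, chr15:102027966-102028215, plus strand: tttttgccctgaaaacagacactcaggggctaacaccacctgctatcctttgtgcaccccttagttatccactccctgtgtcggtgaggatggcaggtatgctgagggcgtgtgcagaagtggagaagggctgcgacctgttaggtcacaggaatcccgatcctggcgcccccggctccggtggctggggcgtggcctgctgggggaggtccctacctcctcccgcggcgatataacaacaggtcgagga
ATAAAA began 29 bases before the start of Krt5 and 31 bases before that of Krt23, and it was not matched in the windows of Krt14, Krt8 or Krt18. In the window of Krt7, the other member with a promoter sequence, whose letters are not shown, it began 7 bases before the start. Of 32851 promoter windows of the same length, 17% held it. The p53 family half-site was matched in Krt5 alone among the 6 members, and in 7.13% of all windows. Its consensus, though not the matched letters, reads the same on both strands, so the match holds on both. These matches are descriptions of the letters and not sites of binding.

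Levels are log2 processed signals centred on each array's 75th percentile, so a value of 0 is the signal of the probe at that rank. Levels of different keratins come from different probes and are not set against each other. All 10 members were well above background on all 6 arrays, and no member spot was saturated or marked as an outlier. Differences are null minus wild type and were tested with limma across 24609 entries, adjusted by the Benjamini-Hochberg method and called below 0.05.

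None of the 10 keratins passed the test (limma, adjusted p from 0.100 for Krt23 to 0.866 for Krt19), where 0.565% of all entries did, 56 higher and 83 lower. At an unadjusted p under 0.05, 2 members had a positive difference (Krt14 and Krt23), where 13.5% of all entries did, and 1 a negative one (Krt6a), where 9.54% did; together these were 3 of 10, against 23% of all entries. The null and wild-type arrays did not overlap for 2 members, Krt14 and Krt23, both with null above wild type. Of all entries, 31.6% did not overlap, 19.6% with null above. The members' shares were thus near these backgrounds or below them. The median difference over the 10 members was -0.0011, with 5 above and 5 below 0, against 0.03 over all entries.

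**Figure D1:**
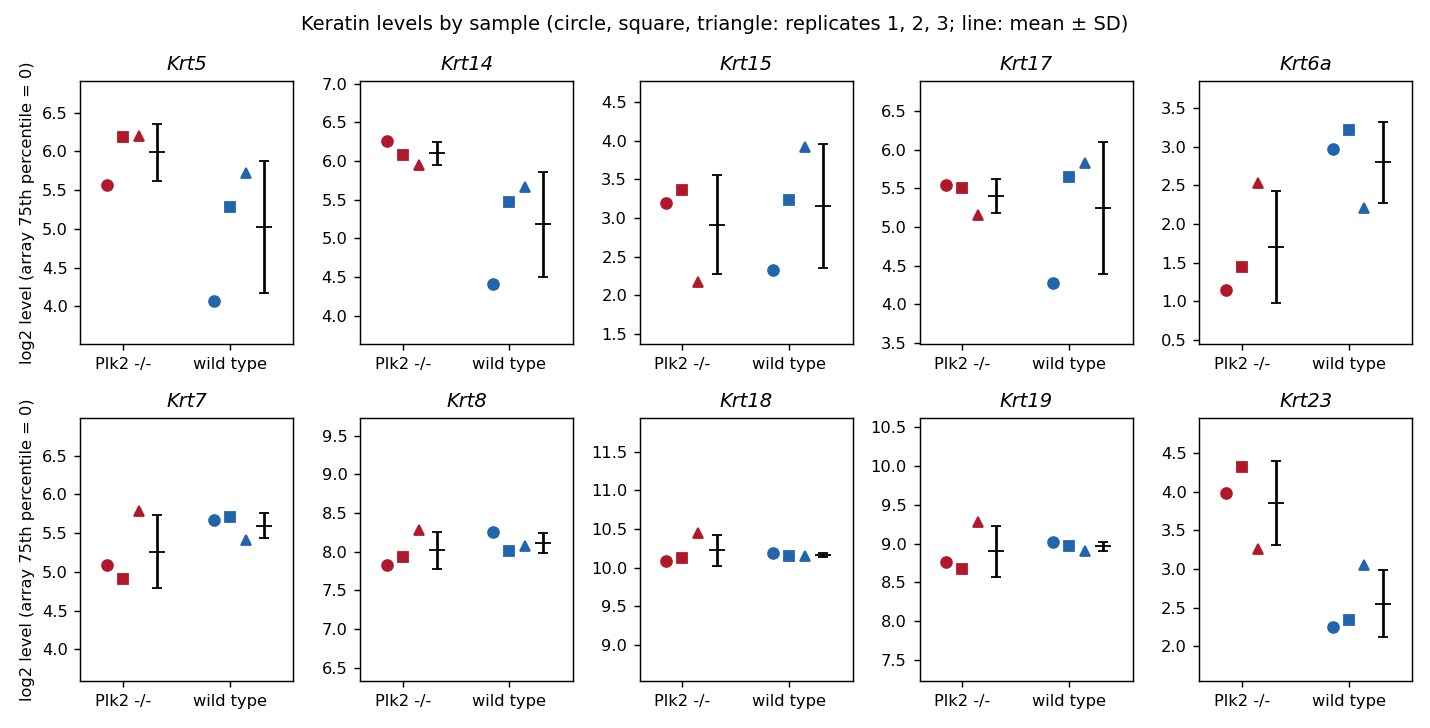
Log2 level of each keratin, with 0 at the array's 75th percentile, in the 3 Plk2 -/- samples (left, red) and the 3 wild-type samples (right, blue). Circles, squares and triangles are replicates 1, 2 and 3, and the black line beside each group is its mean ± SD. All panels span the same log2 range around their own centre; Krt14 and Krt23 are the panels in which the groups do not overlap.

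Krt5 and Krt14, the filament pair of basal cells, had the largest positive differences of the basal group. Krt14 had log2 levels of 6.26, 6.08 and 5.95 in null samples 1, 2 and 3, against 4.41, 5.47 and 5.67 in wild-type samples 1, 2 and 3. Every null sample lay above every wild-type sample, but wild-type samples 2 and 3 lay close below the null ones and wild-type sample 1 far below. The means were 6.10 ± 0.15 in null and 5.18 ± 0.68 in wild type (SD, n = 3 each), a difference of 0.92 (SE 0.33, 95% interval 0.11 to 1.72; 1.89-fold; limma adjusted p = 0.175).

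Krt5 had levels of 5.57, 6.19 and 6.21 in null samples 1, 2 and 3, against 4.07, 5.28 and 5.72 in wild-type samples 1, 2 and 3. The groups overlapped, since wild-type sample 3 lay above null sample 1. The difference was 0.97 (SE 0.44, 95% interval -0.07 to 2.01; 1.95-fold; limma adjusted p = 0.242). The other Krt5 probe was of much weaker signal (250 to 498 units in null samples and 58.9 to 222 in wild-type samples). It had the same sign, with a difference of 1.26. Its groups did not overlap in processed signal but did in log2 level, where null sample 1 (-0.29) lay below wild-type sample 2 (-0.16).

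Both differences depended on wild-type sample 1, the lowest of the 6 for Krt5 and Krt14. Without it they were 0.49 for Krt5 and 0.53 for Krt14 (limma adjusted p = 0.421 and 0.265). The adjusted p also rose without null sample 2 (limma, 0.422 and 0.317), where the differences stayed at 0.86 and 0.92. In processed signal, Krt5 measured 4311 units in wild-type sample 1, against 9677 and 14883 in wild-type samples 2 and 3. Krt14 measured 5464 units in wild-type sample 1, against 11025 and 14345. Over the 6 arrays the levels of Krt5 and Krt14 had a Pearson correlation of 0.90, given as a description of arrays that share their genotype groups and scaling.

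The other basal keratins, Krt17 and Krt15, had smaller differences, of opposite signs. Krt17, a type I keratin of basal cells and hair follicles, had levels of 5.54, 5.51 and 5.15 in null samples, against 4.27, 5.64 and 5.83 in wild-type samples. The null range lay inside the wild-type range, and the difference was 0.15 (SE 0.41; limma adjusted p = 0.846). It turned to -0.34 without wild-type sample 1.

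Krt15, a keratin of basal cells that is best known from hair follicle stem cells, had levels of 3.19, 3.36 and 2.18 in null samples, against 2.32, 3.24 and 3.92 in wild-type samples. Its lowest value was in null sample 3, next to wild-type sample 1. The difference was -0.25 (SE 0.48; limma adjusted p = 0.778), with a sign that turned to 0.12 without null sample 3 and to 0.13 without wild-type sample 3.

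The median difference of the 4 basal keratins was 0.53, with 3 above and 1 below 0, and 1 (Krt14) had an unadjusted p under 0.05. Taken by sample, the median deviation of the group from the wild-type mean was 0.42, 0.58 and 0.34 in null samples 1, 2 and 3, against -0.90, 0.27 and 0.64 in wild-type samples 1, 2 and 3. Wild-type sample 3 thus lay above all 3 null samples, and the distance between groups came from wild-type sample 1. Without that sample the median difference was 0.076.

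**Figure D2:**
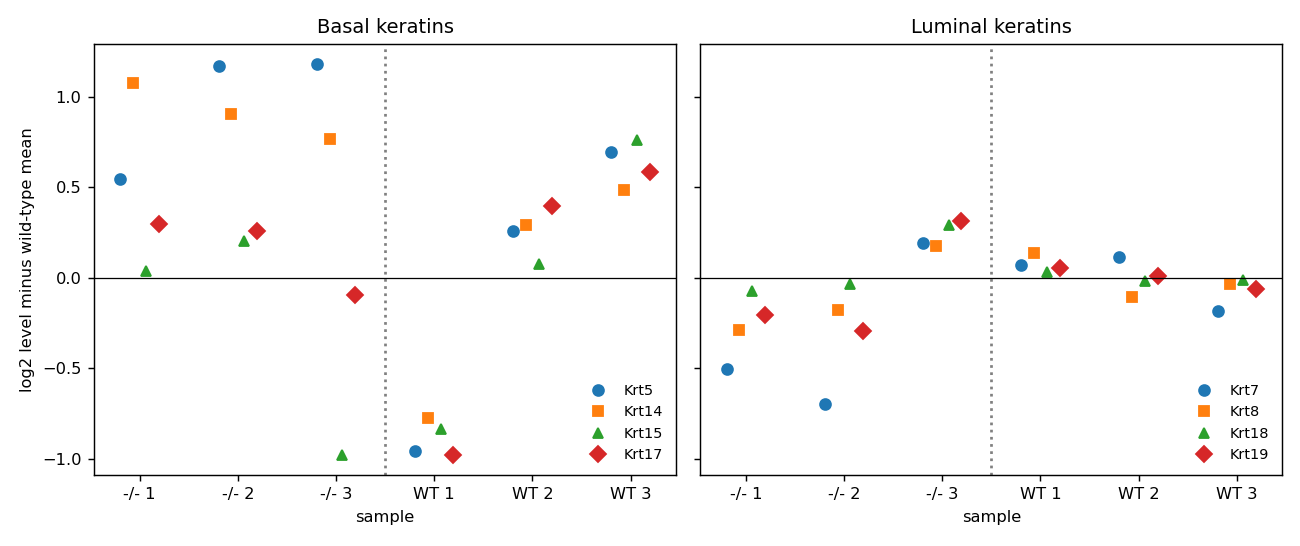
Log2 level of each basal keratin (left panel) and luminal keratin (right panel) minus its wild-type mean, by sample, with the 3 Plk2 -/- samples to the left of the dotted line and the 3 wild-type samples (WT) to the right. Basal keratins spanned -0.98 to 1.18 in null and -0.98 to 0.76 in wild-type samples, whereas luminal keratins spanned -0.70 to 0.31 in null and -0.18 to 0.14 in wild-type samples.

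The luminal keratins differed little between the groups. Krt18 had levels of 10.09, 10.13 and 10.45 in null samples, against 10.19, 10.15 and 10.15 in wild-type samples. The wild-type samples were nearly equal (SD 0.027) and null sample 3 stood above all the others. The difference was 0.06 (SE 0.15, 95% interval -0.31 to 0.43; limma adjusted p = 0.835).

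Krt8, the partner of Krt18, had levels of 7.83, 7.94 and 8.29 in null samples, against 8.25, 8.01 and 8.08 in wild-type samples. Null samples 1 and 2 lay below all wild-type samples and null sample 3 above them. The difference was -0.10 (SE 0.17, 95% interval -0.51 to 0.32; limma adjusted p = 0.766).

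Krt19, a type I keratin of luminal cells, had levels of 8.76, 8.67 and 9.28 in null samples, against 9.02, 8.97 and 8.90 in wild-type samples, a difference of -0.06 (SE 0.19, 95% interval -0.53 to 0.40; limma adjusted p = 0.866). Krt7, a type II keratin of simple and glandular epithelia, had levels of 5.09, 4.90 and 5.79 in null samples, against 5.67, 5.71 and 5.41 in wild-type samples. Its difference was -0.34 (SE 0.25, 95% interval -0.94 to 0.27; limma adjusted p = 0.465). For both, null samples 1 and 2 lay below every wild-type sample and null sample 3 lay above every one.

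The median difference of the 4 luminal keratins was -0.08, with 1 above and 3 below 0 and none at an unadjusted p under 0.05. By sample, the group's median deviation was -0.25, -0.24 and 0.24 in null samples 1, 2 and 3, against 0.06, -0.0030 and -0.05 in wild-type samples 1, 2 and 3. All 4 luminal keratins had their highest level in null sample 3. The 75th percentile signal on which levels were centred was lowest there, at 240 units, against 249 to 305 units in the other samples. In processed signal Krt7, Krt18 and Krt19 were still highest in null sample 3. Krt8 was not, at 74969 units, against 78368 and 76337 units in wild-type samples 1 and 3. The part of the scaling in this was not tested. Without null sample 3 the median difference was -0.24, and Krt7 differed by -0.60 (limma adjusted p = 0.104). Krt7 differed by -0.16 without null sample 2 (limma adjusted p = 0.764) and by -0.044 with spike-in scaling.

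Within each array, the basal median deviation minus the luminal one does not depend on the scaling of the array. It was 0.67, 0.82 and 0.094 in null samples 1, 2 and 3, against -0.96, 0.28 and 0.69 in wild-type samples 1, 2 and 3. The groups overlapped, with wild-type sample 1 lowest and null sample 2 highest. The difference between group means was 0.52, and 0.032 without wild-type sample 1.

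Krt23, a type I keratin, had the largest difference of the 10 members. Its levels were 3.98, 4.32 and 3.26 in null samples 1, 2 and 3, against 2.26, 2.35 and 3.06 in wild-type samples 1, 2 and 3. In processed signal these were 4821, 5639 and 2301 units in null samples and 1229, 1265 and 2349 units in wild-type samples, so null sample 3 lay slightly below wild-type sample 3 before scaling and slightly above it after. The means were 3.85 ± 0.54 in null and 2.55 ± 0.44 in wild type (SD, n = 3 each), a difference of 1.30 (SE 0.34, 95% interval 0.50 to 2.10; 2.46-fold; limma adjusted p = 0.100), short of the threshold.

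Krt6a, a type II keratin induced by injury and stress in skin and used as a mark of some luminal progenitor cells, was the member with the largest negative difference. Its levels were 1.15, 1.44 and 2.52 in null samples, against 2.96, 3.21 and 2.21 in wild-type samples. Null samples 1 and 2 lay below all wild-type samples, while null sample 3 lay above wild-type sample 3. The difference was -1.09 (SE 0.42, 95% interval -2.09 to -0.089; limma adjusted p = 0.189).

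Krt6b, a near-identical neighbour of Krt6a, had a difference of the same sign, -1.05 (SE 0.46; limma adjusted p = 0.233). Its processed signals were 215, 258 and 469 units in null samples, against 627, 826 and 393 units in wild-type samples, high and low in the same samples as Krt6a. Probe letters were not used here, so how far the probes of this pair read each other's transcript was not tested, which leaves both sets of values uncertain.

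**Figure D3:**
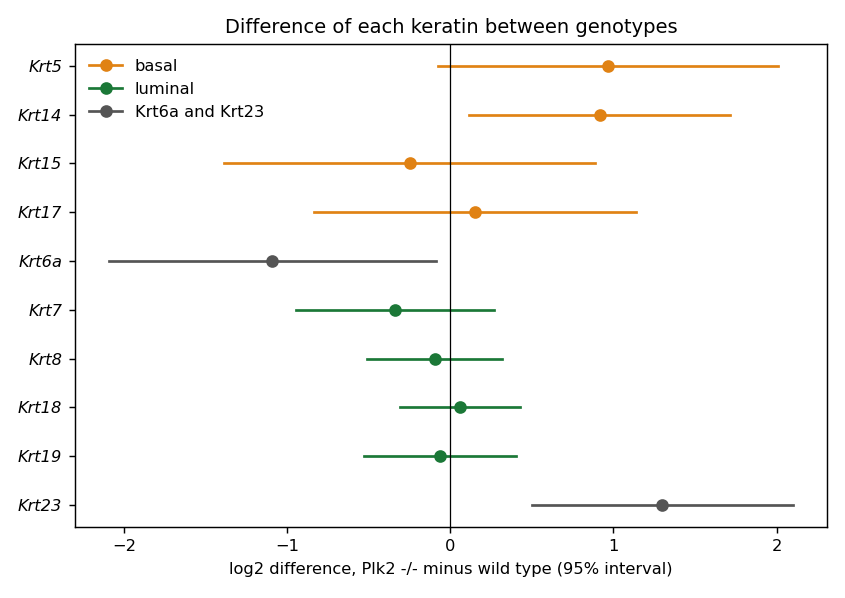
Log2 difference of each keratin, Plk2 -/- minus wild type (point), with its 95% interval from limma (line), for basal (orange), luminal (green) and the other 2 members (grey). The intervals of Krt14, Krt23 and Krt6a leave out 0 before adjustment, and those of the luminal keratins lie between -0.94 and 0.43.

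In the authors' deposited table, which gives an unadjusted p for each probe, Krt23 had the lowest p of the 11 member probes, 0.0448, with a signed fold of 2.38, null over wild type. The authors' deposited table gave Krt6a a signed fold of -2.24 (unadjusted p = 0.0615), Krt14 one of 1.74 (0.170), the bright Krt5 probe 1.74 (0.222) and the weak one 1.97 (0.106). In the authors' deposited table the signed folds of the luminal keratins were -1.37 for Krt7, -1.17 for Krt8 and -1.14 for Krt19, and Krt18 had the highest p of the 11 probes, 0.973.

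A total of 43 further keratin genes had a matched probe, on chromosomes 11 and 15, and 20 of them were well above background on at least 3 arrays. None of these 20 passed the test over all entries. At an unadjusted p under 0.05, 2 were higher, where 13.5% of all entries were, and 4 lower, where 9.54% were. For the overlaps given below, 31.6% of all entries did not overlap between the groups. Their median difference was -0.10, with 9 above and 11 below 0, against 0.03 over all entries. The 6 with the smallest p were Krt71, Krt79, Krt80, Krt78, Krt222 and Krt28.

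Krt71, a type II keratin of the hair follicle's inner root sheath, had signals of 102, 201 and 76.9 units in null samples, against 8.09, 29.2 and 35.0 units in wild-type samples. The groups did not overlap and 1 wild-type array was not well above background. The difference was 2.46 (SE 0.59; limma adjusted p = 0.0940). Krt28, a type I keratin of the same sheath, was dim in both groups, at 24.6 to 93.6 units in null and 8.26 to 25.7 units in wild-type samples, and 1 wild-type array was not well above background (limma adjusted p = 0.168).

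Krt79 had signals of 590, 426 and 515 units in null samples, against 1002, 699 and 864 units in wild-type samples, with no overlap and a difference of -0.81 (SE 0.20; limma adjusted p = 0.0970). Krt80 differed by -0.58 (SE 0.15; limma adjusted p = 0.0970) and Krt222 by -0.56 (SE 0.20; limma adjusted p = 0.165), both without overlap. Krt78 differed by -1.30 (SE 0.43; limma adjusted p = 0.149), and its groups overlapped, null sample 3 standing next to wild-type sample 3.

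Krt16, the type I partner of Krt6a in stressed skin, differed by 0.08 (SE 0.36). Krt42 gave a bright signal, 19645 to 30193 units in null and 21607 to 25508 units in wild-type samples, with a difference of -0.09 (SE 0.26). Both are close in sequence to Krt14 and Krt17, and shared hybridization was not tested. Krt6b, Krt16 and Krt42 were chosen after their values were seen.

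**Figure D4:**
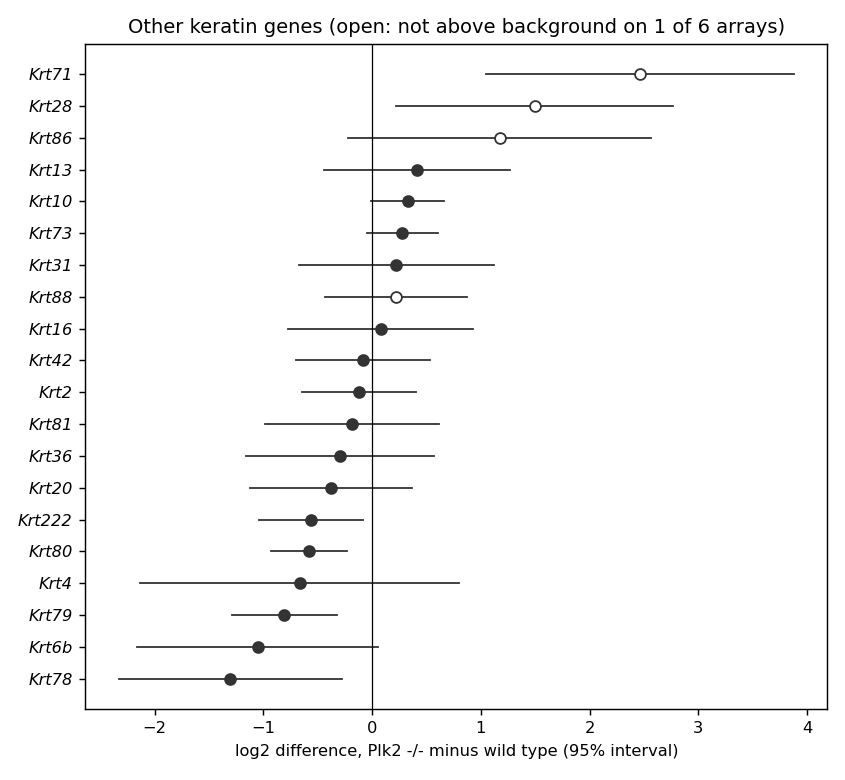
Log2 difference, Plk2 -/- minus wild type, with its 95% interval, for the 20 other keratin genes well above background on at least 3 arrays. Open points are genes not well above background on 1 of the 6 arrays; differences ran from -1.30 for Krt78 to 2.46 for Krt71.

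Proteins that anchor keratin filaments to desmosomes and hemidesmosomes or organise them were given by a list of 12 genes, of which 0 passed the test, 2 were above 0 and 10 below (median -0.31, against 0.03 over all entries). At an unadjusted p under 0.05, 1 was lower, Plec, where 9.54% of all entries were. Plec, which encodes the linker plectin, was at 5.44 ± 0.39 in null and 6.07 ± 0.26 in wild type (SD, n = 3 each). Its difference was -0.63 (SE 0.24, limma adjusted p = 0.193). Dst, which encodes the hemidesmosome linker dystonin, differed by -0.48 (SE 0.23) and Pkp2, a desmosome plaque gene, by 0.32 (SE 0.15). By sample, the median deviation of the list was -0.22, -0.18 and -0.67 in null samples 1, 2 and 3, against -0.27, 0.19 and 0.06 in wild-type samples 1, 2 and 3.

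Of 11 regulators of keratin and epithelial genes, 0 passed the test and 0 had an unadjusted p under 0.05 (limma; 3 above and 8 below 0, median -0.18). Trp63, which encodes p63, an activator of Krt5 and Krt14 in stratified epithelia, was at 1.82 ± 0.10 in null and 2.07 ± 0.21 in wild type (SD, n = 3 each), a difference of -0.24 (SE 0.16; limma adjusted p = 0.413) of the opposite sign to those of Krt5 and Krt14. Tfap2c, which encodes the transcription factor AP-2 gamma, differed by 0.64 (SE 0.28), Grhl2 by 0.38 (SE 0.22) and Elf3 by -0.39 (SE 0.22).

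Of 8 measured genes of other intermediate filaments, 0 passed the test, 2 were above 0 and 6 below (median -0.14). Of the 8, 1 had an unadjusted p under 0.05, Lmnb2, where 23% of all entries had. Lmnb2, a lamin of the nuclear envelope, differed by 0.51 (SE 0.19), Nes, which encodes nestin, by -0.41 (SE 0.18) and Vim, which encodes the mesenchymal filament protein vimentin, by -0.41 (SE 0.22; limma adjusted p = 0.309).

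Markers of the cell types that the samples could hold are given beside these results, and their part in them was not tested. Of all entries, 13.5% were higher and 9.54% lower at an unadjusted p under 0.05, and 31.6% did not overlap. Of 13 basal markers that are not keratins, 11 were above 0 and 2 below (median 0.16), 0 passed the test, and 2 were higher (Oxtr and Acta2) and 1 lower (Itgb4) at an unadjusted p under 0.05. Their summed level, in units of each array's 75th percentile signal, was 752 to 844 in null and 496 to 737 in wild-type samples. The sums rest most on Acta2 and Tagln, the brightest of the 13, which differed by 0.65 and 0.14. Wild-type sample 1 was lowest for Acta2, the smooth muscle actin gene of myoepithelial cells, at 7.10, against 7.67 in both other wild-type samples and 7.89, 8.34 and 8.16 in null samples 1, 2 and 3. It was also lowest for the oxytocin receptor gene Oxtr, at 0.72, against 1.82 and 1.35 in wild-type samples 2 and 3 and 2.65 to 2.74 in null samples. Itgb4, the integrin beta 4 gene of hemidesmosomes, went the other way without overlap, at 3.09, 3.08 and 3.12 in null samples, against 3.40, 3.71 and 3.58 in wild-type samples (difference -0.46, limma adjusted p = 0.134). Acta2, Tagln, Oxtr, Itgb4, Pgr, Cited1, Fabp4 and the progenitor genes named next were singled out after their values were seen. The basal keratins summed to 175.7 to 197 units in null and 62.3 to 175.5 units in wild-type samples by the same measure, so the groups nearly met. These sums rest most on the brighter probes, those of Krt5, Krt14 and Krt17.

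Of 10 luminal markers 6 were above 0 and 4 below (median 0.10; 2 higher and 1 lower at an unadjusted p under 0.05), with sums of 232 to 242 in null and 194 to 240 in wild-type samples. Of 7 genes of hormone-sensing luminal cells, 6 were below 0 (median -0.91, sums of 210 to 336 in null and 257 to 302 in wild-type samples). At an unadjusted p under 0.05, 4 were lower and 0 higher. The sums rest most on Cited1, the brightest of the 7, which differed by 0.37. Of the 7, 1, the progesterone receptor gene Pgr, passed the test (difference -1.96, limma adjusted p = 0.0430). Of 5 measured progenitor genes 3 were above 0 and 2 below (median 0.23, sums of 112 to 139 in null and 89.9 to 139 in wild-type samples), and the median hides differences in both directions. Elf5 (1.71) and Cd14 (0.44) had positive differences and Aldh1a3 (-1.59) and Ltf (-2.08) negative ones. None of the 4 overlapped between the groups, and all 4 had an unadjusted p under 0.05. Of all entries, 31.6% did not overlap and 23% had such a p. None of the 4 passed the test (limma adjusted p from 0.0571 to 0.182). All 10 lymphocyte markers were below 0 (median -2.44, sums of 5.90 to 12.3 in null and 24.5 to 42.8 in wild-type samples), and all 5 measured division genes were above 0 (median 2.34, sums of 24.8 to 79.4 in null and 6.65 to 10.5 in wild-type samples). None of these division or lymphocyte genes passed the test, although all 15 had an unadjusted p under 0.05, where 23% of all entries had. All 7 fibroblast markers were below 0 (median -0.34, sums of 1148 to 1627 in null and 1703 to 1866 in wild-type samples), as were all 4 measured macrophage markers (median -0.40, sums of 38.3 to 64.5 in null and 64.9 to 93.0 in wild-type samples) and all 5 endothelial ones (median -0.24, sums of 12.7 to 18.4 in null and 17.1 to 21.8 in wild-type samples). All 4 measured adipocyte markers were above 0 (median 0.26, sums of 247 to 443 in null and 188 to 334 in wild-type samples). The adipocyte sums rest most on Fabp4, the brightest of the 4, which differed by 0.35. Of 9 epidermis markers on the array, 6 were not kept as well above background, Krt1, Krt77, Ivl, Dsg1a, Dsc1 and Casp14, and the sum of the other 3 was 0.963 to 1.12 in null and 0.802 to 0.876 in wild-type samples.

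The genotype labels were checked on Plk2, with processed signals of 1.87 to 2.44 units, not well above background, in null samples and 1160 to 1472 units in wild-type samples, at least 149.8-fold lower in null (limma adjusted p = 3.61e-06 for the unbounded difference). The sources do not state whether its probe lies in the deleted part. The share of probes well above background was 51.2% to 54.7% in null and 50.2% to 52.2% in wild-type samples. The null arrays shared slide row 2 and the wild-type arrays slide row 1, so a row effect and a genotype effect cannot be told apart.

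By the likeness of their levels over the 6 arrays, among 14387 genes with a symbol, those close to the mean of Krt5 and Krt14 included Bend5, Kcnk5 and Arfip1 (Pearson correlations of 0.990 to 0.992). Those close to the mean of Krt8 and Krt18 included 5730416F02Rik, Acot8 and Camk1 (0.987 to 0.989). With 6 arrays and this many genes, correlations of this size describe the arrays only. Bend5, Kcnk5 and Arfip1 differed by 0.32 to 0.83 between the groups, and 5730416F02Rik, Acot8 and Camk1 by -0.05 to -0.0079, and none of these 6 passed the test.

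**Figure D5:**
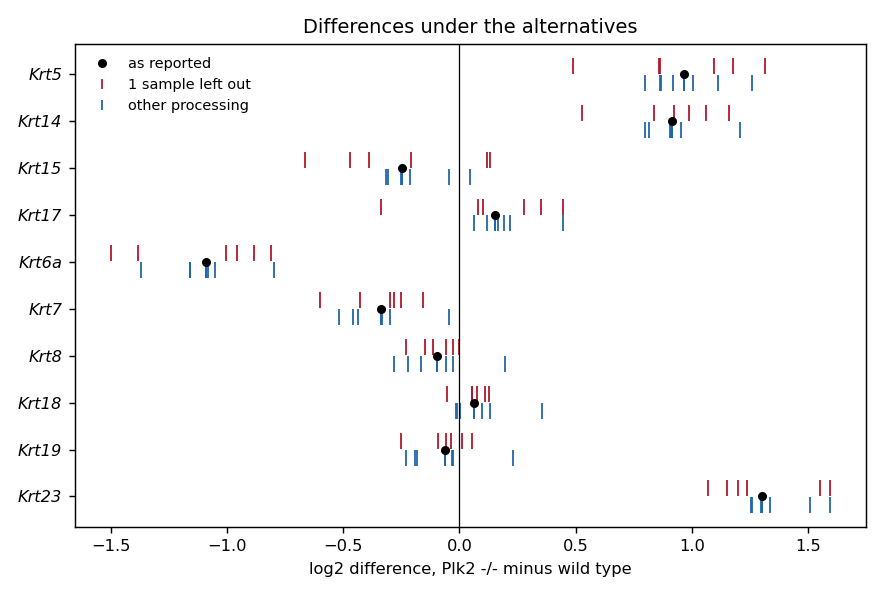
Log2 difference of each keratin, Plk2 -/- minus wild type, as reported (black point), with 1 sample left out (red, upper ticks) and with other processing (blue, lower ticks). Over 17 alternatives Krt5, Krt14 and Krt23 stayed above 0 and Krt6a and Krt7 below, whereas Krt15, Krt17, Krt8, Krt18 and Krt19 took both signs.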

How the data were processed

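Expression was measured in 6 samples on Agilent arrays of design 028005, annotated on mm9 and read with Feature Extraction 11.0.1.1 under protocol GE1_1100_Jul11, per the file headers. The deposited processed signal is a linear intensity, corrected for background within the array by the scanner software and not normalized between arrays, per the file headers. The deposited series table holds intensities that share 1 distribution over the arrays, as quantile normalization gives, and, all by the authors, an unadjusted p-value, a linear ratio (wild type divided by null) and a signed fold, treated here as a score. Its tools were not stated.

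Control spots and 1119 outlier gene spots were left out. Log2 signals were centred on each array's 75th percentile over gene spots and averaged by probe. Genes were named by matching accessions to RefSeq transcripts (GRCm38.p6, names only), which matched 26582 of 55681 probes. The brightest probe of each gene was kept if at least 3 of 6 arrays had it well above background, with unmatched probes standing for themselves, leaving 24609 entries, which limma 3.58.1 (R 4.3.3; lmFit, then eBayes) tested for null minus wild type. The steps were tested on simulated arrays. Intervals are at 95%. The number of arrays limits the precision.

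The text names all members, the 6 other keratins and 3 genes of each related list with the smallest p, Trp63, and, of the 4 genes most like each pair, 3; the others are not reported here. Krt6b, Krt16, Krt42 and the marker genes given with values were added after their values were seen. The members and lists were chosen with earlier results of these data known. Alternatives were other background correction, scaling, filters, probe averaging, array weights, variance moderation, a replicate block, the deposited values, and each sample left out.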

Additional observations from a re-analysis of the deposited data

How the results depend on the processing

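Of the 10 keratins, 0 passed the threshold in 16 of 17 alternatives. With array weights 1 passed, Krt23 (difference 1.51, limma adjusted p = 0.0407), in a fit that also called 1475 of all entries; over its alternatives its adjusted p ran from 0.0407 to 0.276. Among the other keratins, 2 passed with normexp background correction (Krt71 and Krt79), 1 with array weights (Krt78) and 1 with the deposited table's values (Krt79). With spike-in scaling, which moved the median of all entries to 0.32 from 0.03, the luminal median was 0.21, and Krt15, Krt8 and Krt19 turned to 0.044, 0.20 and 0.23. Krt18 turned to -0.017 with quantile normalization and to -0.0087 with array weights. Leaving out 1 sample turned Krt19 to 0.0096 (null sample 1) or 0.052 (null sample 2), within a range of -0.25 to 0.052. It turned Krt15 to 0.12 (null sample 3) or 0.13 (wild-type sample 3), within -0.67 to 0.13, Krt18 to -0.054 (null sample 3), within -0.054 to 0.13, and Krt17 to -0.34 (wild-type sample 1), within -0.34 to 0.44. The causes were not tested. With 1 sample left out, the basal median ran from 0.076 to 0.80, the luminal median from -0.24 to 0.0044, and the basal minus luminal value from 0.032 to 0.84. With the replicate number as a block 0 members passed and the basal median stayed at 0.53, while all calls fell to 2 higher and 6 lower; same-numbered samples did not deviate together (correlations of -0.119, 0.0379 and -0.0183). The count of all entries called ran from 7 to 1475 over the alternatives. All member probes were well above background on all 6 arrays. With normexp background correction the limma adjusted p was 0.052 for Krt23 and 0.087 for Krt6a, against 0.100 and 0.189 as reported.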

Other observations

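The ratio of filament partners within an array does not depend on its scaling, and both ratios were looked at after the levels were seen. The log2 ratio of the Krt8 probe over the Krt18 probe was -2.26, -2.19 and -2.17 in null samples 1, 2 and 3, against -1.94, -2.14 and -2.07 in wild-type samples 1, 2 and 3. Every null sample lay below every wild-type sample, and the group means differed by -0.16. The separation was narrow, with null sample 3 at -2.17 next to wild-type sample 2 at -2.14. Of all single entries, 31.6% did not overlap between the groups. The log2 ratio of the Krt5 probe over the Krt14 probe was -0.69, 0.11 and 0.26 in null samples, against -0.34, -0.19 and 0.05 in wild-type samples, and overlapped. The size of each ratio reflects the probes, so only its change between groups can be read, and neither was tested.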
